A study of Mus musculus with 8 samples.

Results

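The response of control MC38 cells to IFNγ was measured by RNA-seq in 4 of the 8 libraries of the series. MC38 is a murine colon adenocarcinoma line. The labels give the control cells as wild type, and 2 libraries came from cells that had IFNγ at 20 ng/ml over 4 h and 2 from untreated cells. The other 4 libraries came from MC38 cells with a knockout of DENR, a translation re-initiation factor, under the same conditions. They were left out of the main test on the control cells, but entered an alternative fit over all 8 libraries. Control members were taken by genotype and treatment label, not by any measured value. The control cells represent a single cell line and a single dose and time, and the labels give the 2 replicates of a group no separate culture, so that p-values measure the spread between these samples.

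IFNγ is a cytokine made mostly by T cells and NK cells. It binds a receptor built from IFNGR1 and IFNGR2, the attached kinases JAK1 and JAK2 phosphorylate STAT proteins, and STAT dimers enter the nucleus and bind GAS elements in promoters. Early products of this step, such as IRF1, then bind ISRE and IRF elements of further genes. In tumor cells the response is known for raising antigen presentation, T cell-attracting chemokines and the checkpoint ligand PD-L1, which is encoded by Cd274, and for its own feedback through SOCS proteins.

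Each control library held between 17369020 and 17932340 reads on genes. The values compared are scaled reads, which are the reads on a gene divided by a size factor of the library. The deposited tables for treated and untreated cells had been normalized separately, so the reads were recovered and the 4 control libraries were scaled together again. Between 0 and 23.1 scaled reads per library fell on the colon epithelium, T and NK cell and B cell marker lists, and Epcam, Krt20, Cdx2 and Cd3e were not listed in either table. The myeloid list summed to between 404 and 514 scaled reads, nearly all on Cd68 and Cd14, and Adgre1 was not listed. Fibroblast markers such as Col1a1 summed to between 21036 and 22854 scaled reads, so the labelled colon origin was not visible in its epithelial markers. Denr itself had 1383 and 1241 scaled reads in the untreated and 1454 and 1418 in the treated libraries.

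At 4 h, 728 genes were higher and 259 lower with IFNγ among 13954 tested, which is 5.22% and 1.86% of them. A gene was called with a limma adjusted p (Benjamini-Hochberg) under 0.05 and a log2 fold change beyond 0.5 on the scale of log2(scaled reads + 1), which understates the change of genes with few reads. The rises were larger than the falls, with a median log2 fold change of 1.16 over the higher genes and −0.71 over the lower genes, beside −0.00085 over all genes tested. More than 1 log2 unit separated the treated from the untreated cells at 419 higher and 66 lower genes, and 55 genes rose by more than 4 log2 units while none fell that far. The treated and untreated libraries did not overlap at any of the 987 called genes, but this was also so at 51.7% of all genes tested. The share of calls that were rises depends on the scaling, as it was 73.8% here, 62.0% with library totals and 59.9% with the values as deposited, with the median of all genes shifted to −0.07 and −0.08.

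**Figure D1:**
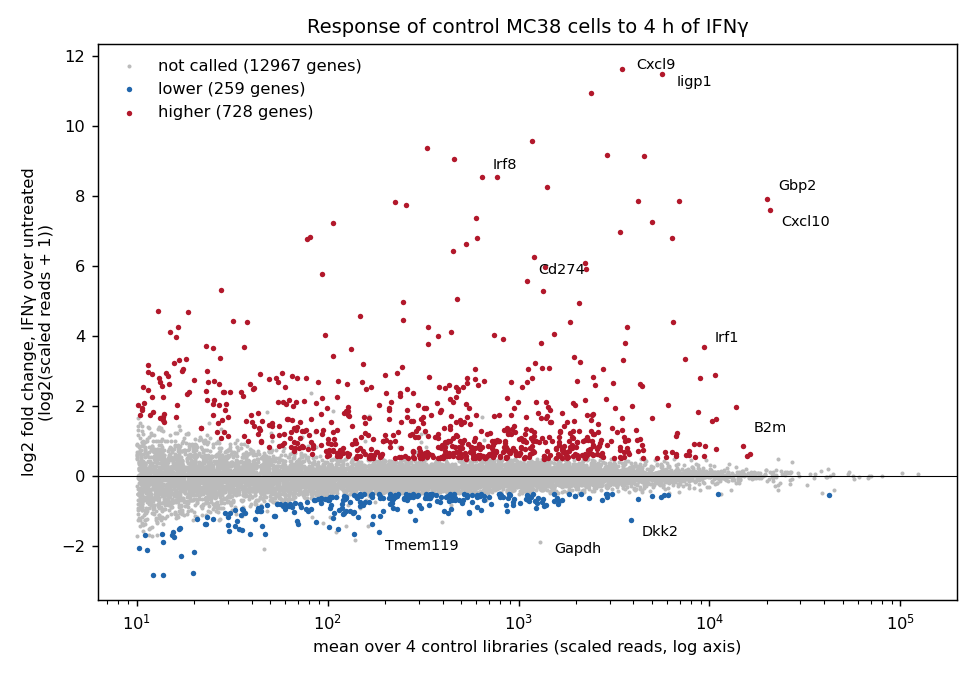
Each point is a gene, with the mean of the 4 control libraries in scaled reads on a logarithmic horizontal axis and the log2 fold change of IFNγ over untreated on the vertical axis. The 728 higher genes, in red, reach 11.63 log2 units at Cxcl9, while the 259 lower genes, in blue, reach down to −2.82.

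The higher genes took a larger part of the transcriptome after treatment. Reads on the 728 genes made up 2.90% and 2.93% of the untreated libraries and 7.41% and 7.40% of the treated ones, and the 10 most abundant of them rose from 0.313% and 0.308% to 1.25% and 1.29%. Reads on the 259 lower genes went from 1.33% and 1.37% to 0.837% and 0.828%. Because these genes were chosen on the same libraries, the shares describe their weight and are not a test. Of the 100 genes with the highest level per length, given as reads scaled to gene length and library total (RPKM), 10 were called higher in treated cells, and 1 of these was already there in untreated cells.

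**Figure D2:**
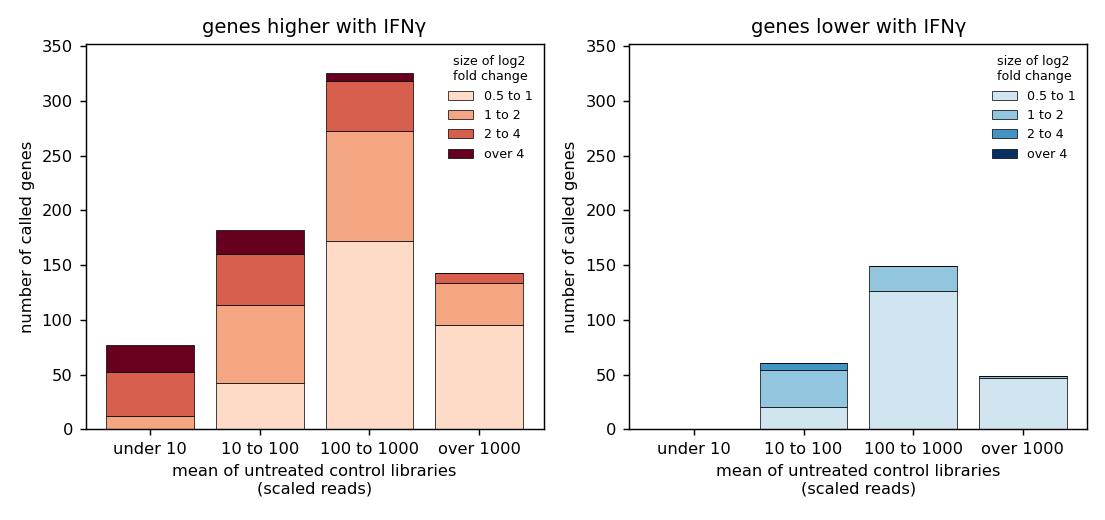
The bars count called genes by their untreated mean in scaled reads, stacked by how large the log2 fold change was, with higher genes on the left and lower genes on the right. Of the higher genes 77 started under 10 scaled reads, 182 between 10 and 100, 326 between 100 and 1000 and 143 above that. The 77 passed the filter, a mean of at least 10 over the 4 control libraries, only through their treated libraries. By the same filter, a gene that fell could not start under 10.

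Among the signaling components several STAT genes rose. Of 13 tested genes of the IFNγ receptor and JAK-STAT core, 5 rose and none fell, with a median log2 fold change of 0.36. Here and for later lists, the shares over all genes tested are 5.22% higher and 1.86% lower. Where a list member had an untreated mean under 10 scaled reads, the filter fixed its direction. Stat2, a part of the ISGF3 complex of type I interferon signaling, had 296 and 301 scaled reads in untreated and 1865 and 1983 in treated cells. Its treated libraries lay far above the untreated ones, with a log2 fold change of 2.68 ± 0.09 (SE, n = 2 per group) and a limma adjusted p of 3.1e-17. Stat3, which also transmits IL-6 signals, rose by 2.67 ± 0.07 log2 units. Smaller rises were found for the kinase gene Jak2 (0.96 ± 0.08) and the type I interferon receptor chain Ifnar2 (0.79 ± 0.11).

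The IFNγ receptor chains themselves moved little. Ifngr1 had 1076 and 1239 scaled reads untreated and 1461 and 1385 treated, and Ifngr2 had 951 and 975 untreated and 1227 and 1325 treated. The groups did not overlap at either gene, yet the differences of 0.30 ± 0.08 and 0.40 ± 0.08 log2 units lay inside the 0.5 limit, so neither was counted as changed although the limma adjusted p was 0.013 and 0.00070. Stat5a was in the same position at 0.36 ± 0.11 (limma adjusted p = 0.037). Jak1 (0.07 ± 0.06), Tyk2 (−0.06 ± 0.09), Ifnar1 (−0.02 ± 0.07), Stat5b (−0.03 ± 0.08) and Stat6 (0.10 ± 0.06) did not pass the test. Stat4 was listed in the table of treated cells alone, with 0 and 2.04 scaled reads.

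Among the brakes on the pathway, Socs1, Socs3, Cish and Usp18 rose, Socs2 fell and the phosphatase and PIAS genes were not called. Of 17 feedback inhibitors tested 4 were higher and 1 lower, with a median of 0.05. Socs1, which blocks JAK kinases directly, went from 570 and 495 to 3351 and 3658 scaled reads, and the groups were clearly apart (log2 fold change 2.72 ± 0.08, limma adjusted p = 9.5e-18). Usp18, a deISGylase that limits type I interferon signaling, rose by 1.81 ± 0.33, Socs3 by 1.54 ± 0.09 and Cish by 0.73 ± 0.20 log2 units. Socs2 went from 119 and 147 to 89.1 and 85.5 scaled reads (−0.59 ± 0.19, limma adjusted p = 0.037). The calls on Cish and Socs2 were each lost with DESeq2 and without single libraries, and that on Socs2 also in a fit over all 8 libraries (−0.60). DESeq2 gave 0.72 for Cish and −0.61 for Socs2. Cish was lost at 0.67 without treated replicate 1 and at 0.50 without untreated replicate 1, and Socs2 at −0.62, −0.56 and −0.45 without treated replicate 1, treated replicate 2 and untreated replicate 2. The phosphatase genes Ptpn2 (0.32 ± 0.09) and Ptpn1 (0.27 ± 0.08) and the STAT inhibitor Pias3 (−0.32 ± 0.09) had limma adjusted p-values of 0.015, 0.018 and 0.019 but stayed inside 0.5. Socs4, Socs5, Socs6, Socs7, Ptpn6, Ptpn11, Pias1, Pias2 and Pias4 did not pass the test, with log2 fold changes from −0.16 at Socs6 to 0.13 at Ptpn6.

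Most interferon regulatory factor genes rose with IFNγ. Of the 8 tested IRF genes 7 rose, with a median of 2.70 log2 units, and Irf3, which is activated by phosphorylation, did not pass the test (−0.09 ± 0.11). Irf1, a classical primary target of IFNγ, had 1376 and 1313 scaled reads untreated and 17400 and 17187 treated. Its libraries agreed closely within each group, and the log2 fold change was 3.68 ± 0.06 with a limma adjusted p of 4.2e-23. Irf8, best known from myeloid cells, was near 0 before treatment, with 2.88 and 1.95 scaled reads, and reached 1355 and 1203. Its log2 fold change of 8.56 ± 0.24 rests on 5 untreated reads, and the SE leaves out much of their counting error. Irf9, the DNA-binding part of ISGF3, rose by 2.71 ± 0.11, Irf7 by 2.69 ± 0.19, Irf5 by 1.37 ± 0.11 and Irf2, an antagonist of IRF1, by 1.23 ± 0.09. Irf4 also rose (3.32 ± 0.59) but from 5 reads in the untreated libraries together.

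Of 20 tested genes listed as other induced transcription regulators 15 rose and none fell, with a median of 1.83 log2 units. Over all genes tested 5.22% rose. The list was drawn up as one of induced genes, with earlier results known, so its count is not a test. Ciita, the master regulator of MHC class II genes, had 3 reads in both untreated libraries together and 1000 in the treated ones, a ratio of 337 with an exact 95% interval from 115 to 1636. Intervals of this kind cover counting error only. Batf2, an AP-1 family factor of interferon responses, went from 69.2 and 61.5 to 2639 and 2588 scaled reads (5.30 ± 0.11), and Nlrc5, the regulator of MHC class I genes, rose by 3.31 ± 0.07 log2 units from 599 and 687 scaled reads. The chromatin reader genes Sp110 and Sp140 rose by 3.76 ± 0.15 and 2.48 ± 0.13, Xaf1, an XIAP-associated factor, by 4.04 ± 0.11, and Batf3 by 3.34 ± 0.57 from 6 untreated reads.

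The gene lists with the highest medians were those of the interferon-inducible GTPases, which attack vacuoles that hold intracellular pathogens. All 8 guanylate-binding protein genes tested rose (median 7.89 log2 units), as did all 9 immunity-related GTPase genes tested (median 7.25). Both counts held under the scaling alternatives, beside 5.22% of all genes tested that rose. The 9 include Gm12250, which is annotated as a processed pseudogene. Gbp5, Gbp6, Gbp8, Iigp1, Tgtp1, Gm12250 and Ifi47 had untreated means under 10 scaled reads. They passed the filter only through their treated libraries, so their direction was fixed by it. Gbp2b, listed in treated cells alone, had 1.04 and 1.02 scaled reads and was not tested. Gbp2 was at 161 and 168 scaled reads before and 38827 and 41158 after treatment, which is 243-fold (7.91 ± 0.07, limma adjusted p = 9.1e-29). Per length, its level went from 3.81 to 882 RPKM and its rank among the tested genes from 8649 to 22. Gbp5, a factor of inflammasome assembly, had 13.5 and 5.86 scaled reads untreated and 5934 and 5608 treated, Gbp4 had 16.3 and 13.7 against 9070 and 8973, and Gbp3 had 31.7 and 39.1 against 8430 and 8447. The groups were far apart at each of these. Gbp6 (8.54 ± 0.28) and Gbp7 (6.81 ± 0.08) rose as well, and Gbp8 rose least in the family, by 5.77 ± 0.36.

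Among the immunity-related GTPases, Iigp1 had 2.88 and 2.93 scaled reads in untreated and 11183 and 11421 in treated cells. The 6 untreated reads against 22008 treated ones correspond to a log2 fold change of 11.50 ± 0.14 (limma adjusted p = 5.2e-26). This SE and p-value come from the spread of replicates, whose small untreated counts happened to agree. They overstate the precision of a change that rests on 6 untreated reads. The same holds for Irf8, Gbp6 and Gbp8, with 5, 7 and 5 untreated reads. Tgtp1 had 3 untreated and 9324 treated reads, a ratio of 3141 with an exact 95% interval from 1074 to 15232. Igtp, also called Irgm3, rose from 53.8 and 62.5 to 13958 and 13643 scaled reads, and the regulatory members Irgm2 and Irgm1 rose by 7.25 ± 0.09 and 5.92 ± 0.31 log2 units. Reads of Tgtp1 and Tgtp2, of the Gbp genes on chromosome 5 and of the Irgm genes can be split between near-identical copies, and the handling of such reads is not given in the sources used here, so the level of a single copy is uncertain.

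STAT dimers bind the GAS letters TTCNNNGAA and ISGF3 and IRF proteins the ISRE letters GAAANNGAAA, where N is any base. The sequences shown are matches, on either strand, in promoter windows from 250 bases before to 50 after the start, taken from RefSeq on GRCm38.p6. They come from the 6 most induced named genes that had a window and hold a match. Iigp1, BC023105, Gbp4, Ido1 and Gbp6 had no window and were not searched. At Gm12250, Gbp5 and Tgtp1 the RefSeq start is not that of the gene model counted. The sequences are printed on the strand of the gene from 5′ to 3′, with the matched letters in capitals. The distance of the matches before the start stands beside each name.
Tgtp1, GAS and ISRE, 88 to 68 bases before the start, chr11:48992310-48992337, minus strand: catTTCCAGGAAtcGAAACTGAAAccta
Igtp, GAS and ISRE, 45 to 25 bases before the start, chr11:58199508-58199535, plus strand: catTTCTAGGAActGAAACTGAAAgctg
Gm12250, GAS and reversed ISRE, 61 to 37 bases before the start, chr11:58183781-58183808, plus strand: gTTCTCAGAAatctgcTTTCAGTTTCat
Gm12250, reversed ISRE, 91 to 82 bases before the start, chr11:58183743-58183770, plus strand: ctcggtggcTTTCAGTTTCtatgcctag
Gbp5, GAS, 52 to 44 bases before the start, chr3:142496873-142496900, plus strand: ggccgttatTTCTCAGAAccaagcacag
Gbp5, reversed ISRE, 165 to 156 bases before the start, chr3:142496760-142496787, plus strand: cttgtgtagTTTCAATTTCagtttagag
Irf8, GAS at 2 places, 171 to 145 bases before the start, chr8:120736187-120736214, plus strand: TTCTCGGAAagagagcgcTTCAGAGAAg
Gbp2, reversed ISRE, 59 to 50 bases before the start, chr3:142620595-142620622, plus strand: ctcttttagTTTCACTTTCactgtctta

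In Tgtp1 and Igtp a GAS match stood 2 bases before an ISRE match, and in Gm12250 a GAS match was followed by a reversed ISRE match. The GAS letters read the same on both strands, so a GAS match has no orientation of its own. The GAS letters occur in 8.30% and the ISRE letters in 3.44% of all 32851 RefSeq promoter windows of this length, so that a match is a description of the letters and not a binding site. A window was found for 500 of the 728 higher genes, which is 68.7% and under the 80% needed, so a comparison of motif shares between higher genes and other genes is void. Among named genes with a window, Irf1 and Socs3 held GAS letters, Gbp3, Cxcl10, Socs1 and Irgm1 held ISRE letters, and Gbp7 and Irgm2 held both, while Tap1, Psmb9 and Cd274 had neither in this window.

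**Figure D3:**
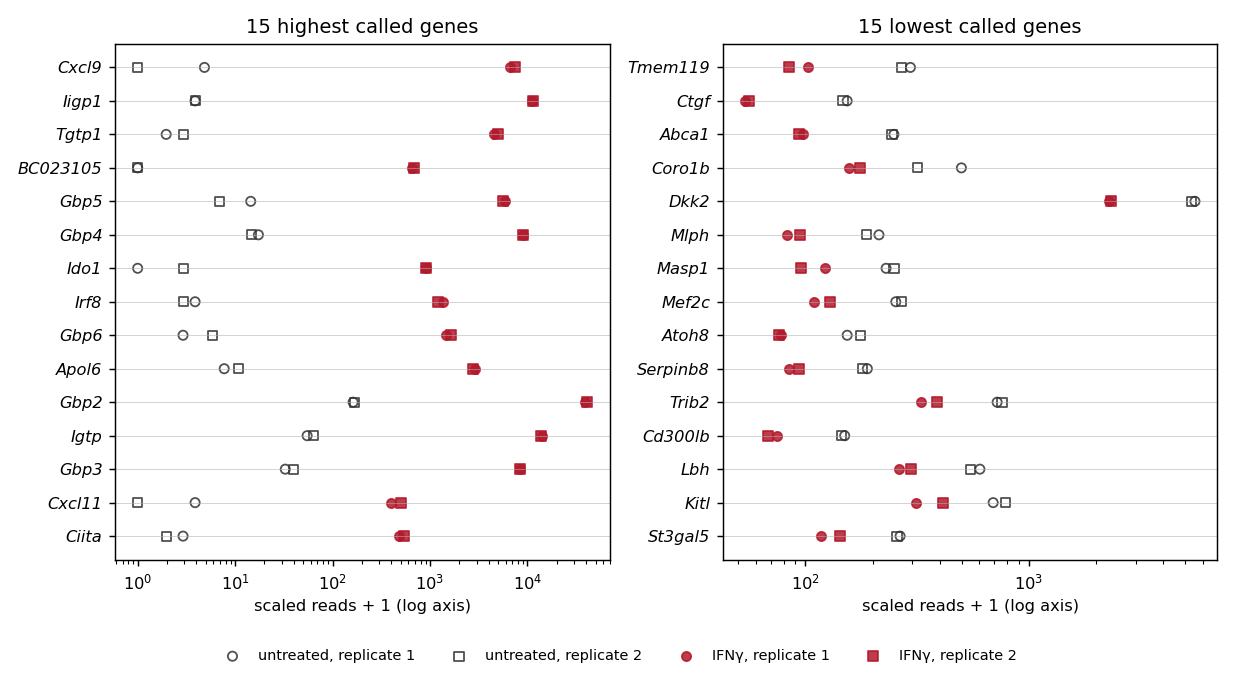
The scaled reads plus 1 of each control library are shown on a logarithmic axis for the 15 highest (left) and 15 lowest (right) named genes, with open symbols for untreated and filled symbols for treated libraries. On the left the treated libraries are at least 2 orders of magnitude above the untreated ones, while on the right they remain within a factor of 4 below them.

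The ligands of CXCR3, which draw T cells and NK cells into tumors, were among the highest genes. Cxcl10 had 213 and 211 scaled reads untreated and 40122 and 42760 treated, a 195-fold difference with the replicates of each group close together (7.60 ± 0.07, limma adjusted p = 9.1e-29). Its rank in level per length went from 7498 to 15, at 1021 RPKM against 5.48 before. Cxcl9 had 3.84 and 0 scaled reads untreated and 6585 and 7363 treated. Its log2 fold change of 11.63 ± 1.09 was the largest of the named genes, but it rests on 4 untreated reads, its limma adjusted p was 0.047, and it was not called with a pseudocount of 0.25, without the filter or with a replicate block. Cxcl11, which is annotated as a polymorphic pseudogene, had 3 untreated and 878 treated reads. The ratio was 296 with an exact 95% interval from 101 to 1437, and Cxcl11 was not called with a pseudocount of 0.25.

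In all, 12 of 14 tested chemokine genes rose and none fell, with a median of 2.79 log2 units. The neutrophil attractant Cxcl1 went from 467 and 484 to 6473 and 6956 scaled reads (3.82 ± 0.07), and the monocyte attractants Ccl2, Ccl7 and Ccl8 rose by 2.82 ± 0.06, 1.81 ± 0.08 and 1.99 ± 0.25 log2 units. Cxcl5 and Cxcl2, which share receptors with Cxcl1, rose by 3.70 ± 0.40 and 2.82 ± 0.62 at low levels of at most 74.3 scaled reads. Ccl9 and Ccl25 did not pass the test at 0.18 and 0.20.

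Of 20 cytokines and cytokine receptors tested 11 rose, with a median of 0.71. The death receptor gene Fas went from 42.3 and 43.9 to 747 and 676 scaled reads (4.01 ± 0.15), and Tnfsf10, which encodes the ligand TRAIL, rose by 4.41 ± 0.51 from 6 untreated reads. Il15ra, which presents IL-15 to T and NK cells, rose by 3.05 ± 0.11, Il18bp, a decoy for IL-18, by 2.48 ± 0.15 and Il13ra1 by 2.37 ± 0.18 log2 units. Csf2 was called at 2.93 ± 0.83 log2 units (limma adjusted p = 0.030) from 7 untreated reads. It was not called with a pseudocount of 0.25 (3.95), with DESeq2 (2.59) or without untreated replicate 1 (1.44). Il6 and Tnf were listed with at most 2.04 scaled reads in a control library.

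In antigen presentation by MHC class I, the largest rise was that of the peptide transporter gene Tap1, followed by the heavy chain gene H2-T23. Of 19 tested genes 14 were higher and none lower, with a median of 1.34 log2 units. Tap1 encodes a chain of this transporter and went from 561 and 589 to 12483 and 12141 scaled reads (4.42 ± 0.07, limma adjusted p = 4.4e-24). Tap2, its other chain, rose by 2.62 ± 0.09 and the peptide editor Tapbpl by 2.68 ± 0.09. The non-classical heavy chain genes H2-T23, H2-T22 and H2-T10 rose by 2.84 ± 0.15, 2.03 ± 0.07 and 1.86 ± 0.19 log2 units. H2-T10 is annotated as a polymorphic pseudogene. B2m, the light chain shared by class I molecules, started high with 10641 and 10674 scaled reads and reached 18452 and 20089 (0.85 ± 0.06). The classical heavy chains H2-K1 and H2-D1, named here after their values were seen, rose by 0.77 ± 0.07 and 0.57 ± 0.06. Class I heavy chain genes resemble each other closely, so reads can be split between them. The general chaperone genes Calr, Canx and Pdia3 did not pass the test, at 0.05, 0.04 and 0.06.

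The immunoproteasome replaces catalytic subunits of the standard proteasome and favors peptides that fit class I molecules. All 6 of its tested genes rose, or 5 with the values as deposited, with a median of 1.94 log2 units, and 1 of 22 genes of the standard proteasome did, with a median of 0.13. The catalytic subunit genes Psmb9, Psmb10 and Psmb8 rose by 3.80 ± 0.09, 3.07 ± 0.08 and 2.16 ± 0.13, and the activator genes Psme2 and Psme1 by 1.71 ± 0.08 and 1.01 ± 0.07. Psmb9 went from 169 and 179 to 2574 and 2312 scaled reads. The assembly factor Pomp rose by 0.58 ± 0.08, and was not called with the values as deposited (0.49) or without untreated replicate 2 (0.44). The replaced subunit genes Psmb6, Psmb7 and Psmb5 had log2 fold changes of 0.04, 0.12 and 0.04 and did not pass the test, and Psma5 was the standard subunit that rose (0.58 ± 0.07), a call lost with the values as deposited.

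In the MHC class II pathway the regulators Ciita and Rfx5 rose, while the regulators Rfxank (−0.21 ± 0.20) and Rfxap (0.01 ± 0.10) did not pass the test. Of 7 tested genes 5 were higher, led by Ciita and followed by the invariant chain Cd74 (2.26 ± 0.57), which was at 4.81 and 2.93 scaled reads untreated and 33.2 and 14.3 treated. The promoter factor Rfx5 rose by 1.21 ± 0.11 and of the peptide-loading chains H2-DMa was 2.04-fold higher and H2-DMb1 was called at 0.55 ± 0.12 log2 units. The call on H2-DMa was lost with DESeq2 (1.03), without treated replicate 1 (0.88) and without untreated replicate 2 (0.90). That on H2-DMb1 was lost with library totals (0.48), with the values as deposited (0.46) and without untreated replicate 2 (0.47). The class II chains H2-Aa, H2-Ab1 and H2-Eb1 were listed in treated cells alone, with at most 2.07, 1.02 and 11.2 scaled reads in a library.

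Cd274 was the checkpoint ligand gene with the largest change. It had 49.0 and 40.0 scaled reads in untreated and 2147 and 2200 in treated cells, a 48.8-fold difference far beyond the spread of either group (5.58 ± 0.12, limma adjusted p = 1.2e-20). Of 10 tested genes of this list 4 rose and 1 fell, with a median of 0.37. Tnfrsf14, which encodes HVEM, rose by 1.96 ± 0.13, Icosl by 1.32 ± 0.25 and Cd47, the signal against phagocytosis, by 0.68 ± 0.06 log2 units. Ceacam1, an adhesion receptor of the carcinoembryonic antigen family, fell from 46.1 and 49.8 to 14.5 and 20.4 scaled reads (−1.43 ± 0.33, limma adjusted p = 0.0036), and was not called by DESeq2. Lgals9 (0.44 ± 0.08) and Pvr (0.30 ± 0.07) had limma adjusted p-values of 0.00051 and 0.0044 but stayed inside 0.5. Cd276, Nectin2 and Lgals3 did not pass the test.

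Most genes best known from type I interferon responses rose. Of 47 tested antiviral genes 42 were higher and none lower, with a median of 2.11 log2 units. Zbp1, a sensor of Z-form nucleic acids, had 9.61 and 9.76 scaled reads untreated and 1026 and 1081 treated (6.62 ± 0.18). Samhd1, which depletes nucleotides needed by viruses, had a place among the 5 largest gains in scaled reads of all called genes, from 2551 and 2513 to 18621 and 18932 (2.89 ± 0.06). Parp14 rose by 4.25 ± 0.07 and its neighbours Parp9 and Dtx3l by 3.41 ± 0.08 and 3.27 ± 0.08, and the chaperone-like Rtp4 by 4.96 ± 0.20. The ubiquitin-like modifier Isg15 was at 47.1 and 45.9 scaled reads untreated and 353 and 347 treated, and Ifit1 (2.53 ± 0.39) and Ifit3 (2.92 ± 0.34) remained below 81 scaled reads. Mx1, Mx2 and Rsad2, which are strong targets of type I interferon in many cells, had means under 10 scaled reads and were not tested.

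Of 15 amino acid and metabolite effectors tested 7 rose and none fell, with a median of 0.34, and they started from different levels. Ido1, which degrades tryptophan, had 2 untreated and 1784 treated reads, a ratio of 901 with an exact 95% interval from 249 to 7449, and Acod1, which makes itaconate, had 1 and 302 reads, a ratio of 305 with an interval from 54.4 to 12093. Ido1 was not called with a pseudocount of 0.25. Nos2, the inducible nitric oxide synthase, rose from 45.2 and 60.5 to 6812 and 6733 scaled reads (6.99 ± 0.12). Wars, which charges tRNA with tryptophan, rose by 3.33 ± 0.06 from 1387 and 1314 scaled reads, Ido2 by 2.94 ± 0.16 and the mitochondrial dismutase Sod2 by 1.75 ± 0.07 log2 units.

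Of 29 genes of cell death tested 19 rose and none fell, with a median of 0.90. Apol6, an apolipoprotein L family member, had 6.73 and 9.76 scaled reads untreated and 2889 and 2732 treated (8.27 ± 0.17). Serpina3g, a protease inhibitor, rose by 5.98 ± 0.11, and its copies and those of Apol9a and Apol9b may share reads. The inflammatory caspase genes Casp1, Casp4 and Casp12 rose by 2.71 ± 0.44, 2.56 ± 0.13 and 2.08 ± 0.12. Casp8 and Casp9, which start apoptosis, did not pass the test, at 0.06 and −0.29.

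Of 10 complement and adhesion genes 7 rose. C1s1 and C1ra, proteases of the classical pathway, rose by 3.10 ± 0.09 and 2.77 ± 0.11, C3 by 1.36 ± 0.09, and the leukocyte adhesion molecules Icam1 and Vcam1 by 1.96 ± 0.22 and 1.66 ± 0.07 log2 units. C4b had 1 untreated and 412 treated reads, with an exact 95% interval of the ratio from 74.3 to 16484.

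Genes of the NF-κB system that limit or carry its signal also rose. Of 18 tested genes 12 were higher and none lower, with a median of 0.66 log2 units. Nfkbiz, an atypical IκB protein, went from 573 and 583 to 2348 and 2205 scaled reads (1.98 ± 0.08), and Bcl3, Tnip1, Nfkbie, Tnfaip3 and Nfkbia rose by between 1.06 ± 0.06 at Nfkbia and 1.71 ± 0.09 at Bcl3. The subunit gene Rela did not pass the fold limit at 0.29. The immediate early genes were mixed, with 5 higher and 2 lower of 20 tested and a median of 0.26. Zfp36, which destabilizes cytokine mRNA, rose by 1.71 ± 0.11, Atf3 by 1.18 ± 0.13, Junb by 1.03 ± 0.06 and Jun by 0.62 ± 0.06, while the zinc finger gene Egr3 fell by 0.61 ± 0.12 and the MAP kinase phosphatase gene Dusp1 by 0.58 ± 0.09 on the log2 scale.

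The induced genes also held members outside immune lists. Fst encodes follistatin, which binds activin. It rose from 182 and 165 to 2748 and 3028 scaled reads (4.05 ± 0.09), and was the member of 17 tested TGFβ, BMP and activin targets that rose. Tubb3, a tubulin best known from neurons, also had a place among the 5 largest gains in scaled reads, from 5728 and 5450 to 21712 and 21956 (1.97 ± 0.06). Gja4, which encodes a gap junction protein, went from 37.5 and 23.4 to 2492 and 2260 scaled reads (6.27 ± 0.20), and Gjb5, of the same family, rose by 2.40 ± 0.39 log2 units. Hk2, a hexokinase, was the glycolysis gene that rose (1.28 ± 0.07). In the glycolysis list and in that of TGFβ, BMP and activin targets 5.88% of tested genes rose, beside 5.22% of all genes tested.

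A set of genes had no reads in untreated control cells at this depth. For 2 called genes both untreated libraries were at 0, and 3 reads over the group were taken as the limit that a count of 0 allows. BC023105 was at least 437-fold and Ifi44 at least 16.8-fold higher on this basis. A further 13 genes were listed in the table of treated cells alone with a mean of at least 10 scaled reads over the 4 control libraries, so they were outside the tests. Gm4841 had 1654 and 1687 scaled reads in treated cells and was at least 1095-fold higher, Serpina3f at least 887-fold, Gm4951 at least 375-fold, F830016B08Rik at least 323-fold and Gbp10 at least 123-fold. No gene listed in the table of untreated cells alone reached a mean of 10 in the untreated control libraries, the highest mean being 5.37.

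The falls were smaller than the rises. Of the lower genes 7 fell by more than 2 log2 units, down to −2.82, all with means under 100 scaled reads and outside the named genes. The lowest named gene was Tmem119, a membrane protein known from osteoblasts and microglia, which went from 294 and 268 to 102 and 83.5 scaled reads (−1.60 ± 0.16, limma adjusted p = 5.2e-08). Ctgf, a matricellular protein, had 153 and 147 scaled reads untreated and 52.8 and 55.0 treated (−1.46 ± 0.20), and Abca1, the cholesterol exporter, had 248 and 243 against 96.4 and 92.7 (−1.37 ± 0.16). The groups were apart at each of these, and the treated mean lay at between 0.329 and 0.385 of the untreated mean. Dkk2, a Wnt antagonist, had 5530 and 5342 scaled reads untreated and 2272 and 2326 treated (−1.24 ± 0.06, limma adjusted p = 1.9e-13).

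Coro1b, an actin regulator, was at 498 and 315 scaled reads untreated and at 156 and 175 treated, so its untreated replicates lay far apart, and it was not called in a fit over all 8 libraries. The melanosome transport gene Mlph, the lectin pathway protease Masp1, and the transcription factors Mef2c and Atoh8 fell, with log2 fold changes of −1.18 ± 0.17, −1.14 ± 0.16, −1.14 ± 0.15 and −1.09 ± 0.18. Serpinb8, Trib2, Cd300lb, Lbh, Kitl, which encodes stem cell factor, and St3gal5, a ganglioside synthase, fell, with log2 fold changes between −1.05 at Serpinb8 and −1.01 at St3gal5. The largest losses in scaled reads were those of Ahnak, a giant scaffold protein, Mbnl1, Dkk2, Angptl2 and Cav1. Ahnak went from 47889 and 53133 to 34557 and 34466 scaled reads (−0.55 ± 0.06), and its call was lost at −0.47 without untreated replicate 2, as was that of Mbnl1 at −0.45 without treated replicate 1.

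Targets of TGFβ and BMP signaling held 3 lower genes among 17 tested, or 17.6%, beside 1.86% of all genes tested. Whether such list shares differ from that over all genes was not tested. Id1 and Id2, inhibitors of basic helix-loop-helix factors, fell, at −0.60 ± 0.07 and −0.51 ± 0.09 log2 units, as did Id4 at −1.23 ± 0.31. Id2 was not called with TMM scaling (−0.499) or without untreated replicate 1 (−0.46), and Id4 was not called with DESeq2 (−1.25), without treated replicate 2 (−0.93) or untreated replicate 2 (−0.99). The Notch target Hes1 fell by 0.76 ± 0.15 and the receptor Pdgfrb by 0.77 ± 0.10. Of 27 extracellular matrix genes 3 were lower (11.1%) and 1 higher (3.70%), with a median of −0.23. Col3a1, Thbs1 and Thbs2 were at −0.50, −0.58 and −0.54, and Tnc at 0.80. Each of these 4 calls was lost without 1 of the libraries, with Col3a1 at −0.42 and −0.41 without treated replicate 2 and untreated replicate 1, Thbs1 at −0.45 and −0.46 without treated replicate 1 and untreated replicate 2, Thbs2 at −0.49 without untreated replicate 2, and Tnc at 0.64 and 0.44 without treated replicate 1 and untreated replicate 2. Col3a1 was also not called with TMM scaling (−0.495), and Tnc was not called with library totals (0.73), the values as deposited (0.72) or DESeq2 (0.78). The summed fibroblast markers, of which 6 of 7 were tested, were at between 21036 and 21056 scaled reads in treated and between 21928 and 22854 in untreated cells. Of the 6 markers Pdgfrb and Col3a1 fell and 1 rose, the proteoglycan gene Dcn, from 4239 and 4505 to 5885 and 6693 scaled reads (0.52 ± 0.07). Its call was lost with library totals (0.45), the values as deposited (0.44), median centring (0.48), without treated replicate 2 (0.43) and without untreated replicate 1 (0.48).

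Growth and housekeeping lists held no or few called genes. None of 27 genes of S phase, 25 of mitosis, 27 of MYC and ribosome biogenesis, 30 cytosolic ribosomal proteins, 23 of cholesterol synthesis, 20 ATF4 and unfolded protein response targets and 10 heat shock genes was called, with medians between −0.09 and 0.13, and several of these medians change sign with the scaling. Of these 162 genes together 48 had an unadjusted limma p under 0.05 and 16 an adjusted p under 0.05, all inside the 0.5 limit, and edgeR and DESeq2 also called 0 of them. Among 15 housekeeping genes B2m alone was called. Gapdh was listed at 414 and 4065 scaled reads in the untreated and at 351 and 355 in the treated libraries. Its log2 fold change of −1.87 ± 1.57 (limma adjusted p = 0.63) follows from untreated replicate 2, which lay apart from the other 3 libraries.

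**Figure D4:**
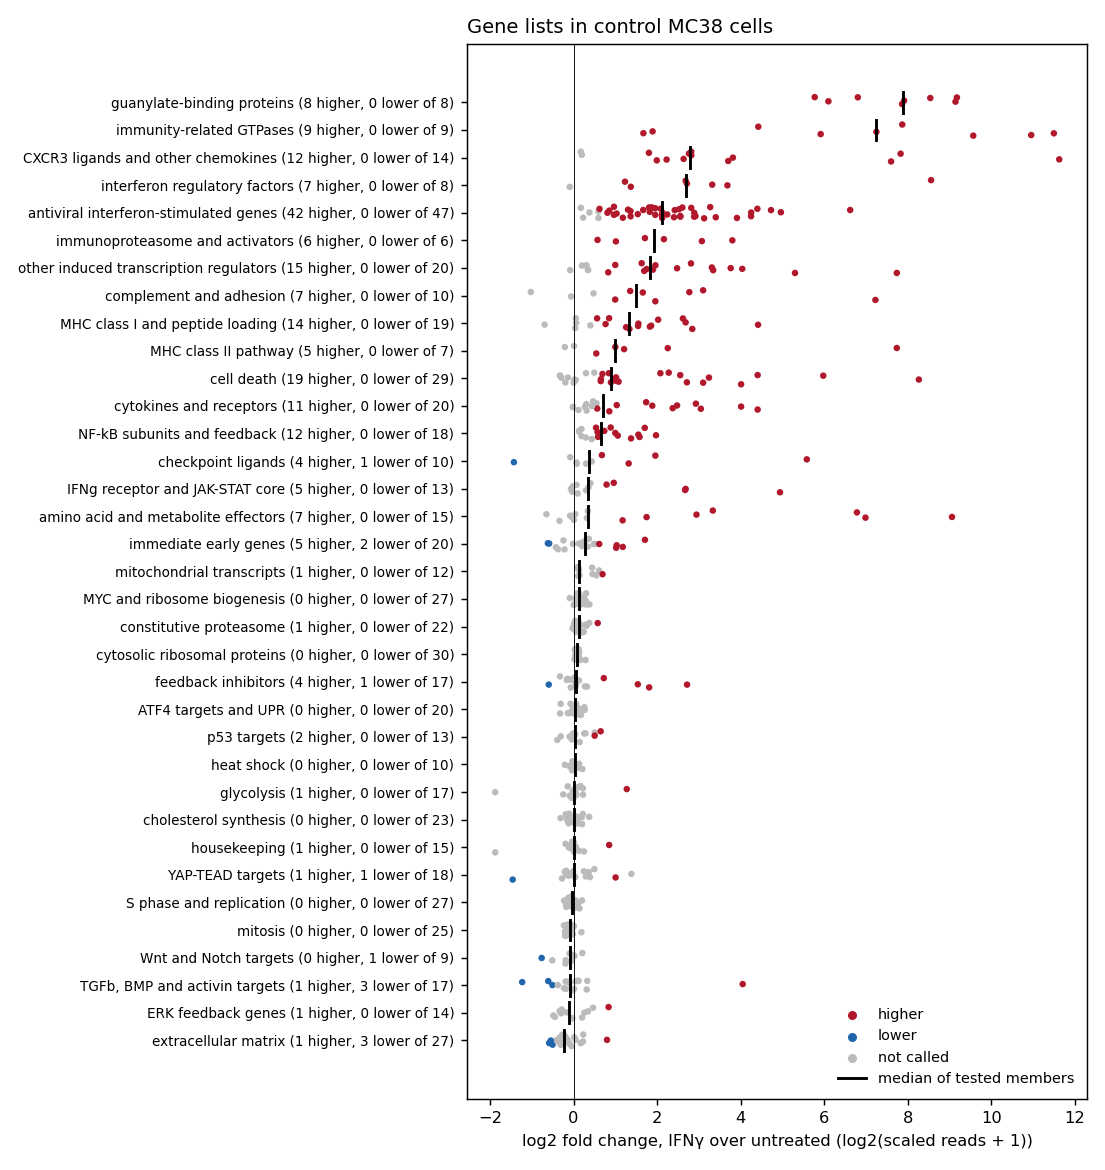
Each point is a tested member of a gene list, placed by its log2 fold change of IFNγ over untreated on the horizontal axis, with higher genes in red, lower genes in blue and uncalled genes in grey, and black bars for the list medians. Guanylate-binding proteins and immunity-related GTPases lie farthest to the right at medians of 7.89 and 7.25, and the growth and housekeeping lists gather around 0.

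Higher genes often lay side by side. A run was defined as at least 3 tested genes called in the same direction with no other tested gene between them. The search gave 35 runs of higher genes, holding 138 genes or 19.0% of those that rose, and no run of lower genes. Fewer genes were lower (1.86% of those tested) than higher (5.22%), and the number of runs that such shares would give was not tested. Some runs hold calls lost under an alternative, such as those on Gm7592, Dnah17, AW011738 and Perm1. Gm37090, Gm16008 and Tnfrsf18, which form a run, were each lost with DESeq2. Gbp5, Gbp7, Gbp3 and Gbp2 formed a run with Kyat3 on chromosome 3 (GRCm38 chr3:142493978-142746870), and Gbp8, Gbp9, Gbp4 and Gbp6 another on chromosome 5 (chr5:105014150-105293698). Cxcl9, Cxcl10 and Cxcl11 lay together on chromosome 5 (chr5:92321347-92365485), as did Cxcl5, Ppbp, Cxcl1 and Cxcl2 (chr5:90759360-90905938). In the MHC, H2-DMa, H2-DMb1, Psmb9, Tap1, Psmb8 and Tap2 followed each other on chromosome 17 (chr17:34135182-34216321).

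Cd274 itself stood in a run with Jak2, Insl6 and Plgrkt on chromosome 19 (chr19:29251828-29388095). Insl6, a relaxin family gene, had 13.5 and 11.7 scaled reads untreated and 89.1 and 98.8 treated (2.81 ± 0.30), and Plgrkt, a plasminogen receptor, rose by 1.15 ± 0.12 log2 units. Other runs held 7 Ifi200 family loci from Ifi207 to Ifi205 on chromosome 1, 6 Trim genes from Trim34a to Trim30d on chromosome 7, and 5 Ly6 genes on chromosome 15, of which Ly6a, the stem cell antigen Sca-1, went from 5221 and 5280 to 15834 and 16822 scaled reads (1.64 ± 0.06). Ly6i in this run was not called with DESeq2 (2.21) or without untreated replicate 1 (1.46). Reads of family members and of overlapping or antisense genes in such runs cannot always be assigned, as the handling of strand is not given in the sources used here.

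In DENR KO cells, fitted on their own, IFNγ raised 560 and lowered 119 of 14008 genes tested. Of the genes higher in control cells 505 were also higher there, which is 69.4% of the control calls and 90.2% of the DENR KO calls. Of the lower genes 69 were shared, which is 26.6% and 58.0%. No gene called in control cells was called in the opposite direction in DENR KO cells. Whether the responses of the genotypes differ was not tested here.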

How the data were processed

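The authors deposited a table for each treatment with a normalized signal per gene and library, that is, read counts divided by a size factor, beside their own fold changes and p-values, which were not used. The submitters' processing notes list HISAT2 2.0.5, StringTie 1.3.3b, featureCounts 1.5.0-p3, DESeq2 1.20.0 and mm9. Of the 23619 gene identifiers shared with GENCODE M21, 95.6% have coordinates identical to it, so the coordinates are those of GRCm38. Strand handling is not given in the sources used here.

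All values (100%) were whole multiples of the smallest one within 0.001, which recovered the reads. Size factors over the 4 control libraries, by median of ratios, ran from 0.965 to 1.04. The 20432 genes in both tables were joined and those with a mean of at least 10 were tested with limma 3.58.1 (R 4.3.3), intensity trend and robust moderation, on log2(scaled reads + 1). A count test had been set as an alternative because of the unit. Replicates differed beyond sampling noise, with mean squared z of 5.19 and 7.23. In counts simulated from the untreated means and size factors over 13934 genes, limma found 99 of 99 genes changed by 2 log2 units. It found 84 of 99 changed by 1, with 1 false call. The simulation used a single preset dispersion for all genes. Changes went up and down equally often, from untreated means of at least 10. Replicate outliers such as Gapdh were not simulated, so these figures do not give the error of the real comparison.

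The members and lists were chosen with earlier results of these data known. Named genes were the 15 highest and 15 lowest called genes with a mean of at least 100, a gene name and no overlap, the 5 smallest p-values, the 5 largest gains and losses, all JAK-STAT, feedback and IRF genes, up to 6 called members of each other list, 5 genes of a single table and the genes of runs. Some items chosen in this way are left out of this text. Uncalled list members, marker genes, Denr and Gapdh were named after their values were seen. RefSeq promoter windows were matched by symbol. Alternatives were TMM, library totals, deposited values, median centring, pseudocounts of 4 and 0.25, no filter or a mean of 100, edgeR 4.0.16, DESeq2 1.42.0, a fold limit of 1, all 8 libraries, a replicate block, genes in either table, and each library left out.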

Additional observations from a re-analysis of the deposited data

Results flagged for a closer look

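Outside the tested genes, 13 genes were listed in the table of IFNγ-treated cells alone and had a mean of at least 10 scaled reads over the 4 control libraries, with both untreated control libraries at 0. They are Gm4841, Serpina3f, Gm4951, F830016B08Rik, Gbp10, Gvin1, Gm4070, Gm5970, Tgtp2, Olfr753-ps1, Serpina3i, Serpina3e-ps and Slc6a19. Their signal lies above the limit that a count of 0 in the untreated libraries allows. This follows from the choice, as they reached the mean of 10 only through the treated libraries. Gvin1, a very large inducible GTPase, had 176 and 171 scaled reads in treated cells and was at least 114-fold higher, Gm4070 at least 86.2-fold and Slc6a19, at the low end, at least 14.5-fold. When the mean was taken over the treated control libraries alone, 18 genes reached 10 scaled reads, and 0 genes of the table of untreated cells did so over the untreated ones. Several are near-identical to neighbours, and how their reads were divided was not tested.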

How the results depend on the processing

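With 2 libraries a group, depth and the spread of 2 values limit genes with few reads. The number of higher genes stayed between 641 and 786 under the scalings, pseudocounts, filters except a mean of at least 100 (569), and tests, and the number of lower genes rose to 398 with library totals and 429 with the values as deposited and fell to 171 with DESeq2. Of the genes higher and lower here, 649 and 259 were kept with library totals, 641 and 259 with deposited values and 638 and 169 with DESeq2. A fold limit of 1 left 419 higher and 66 lower genes by construction. Without single libraries the counts ranged from 706 to 775 higher and from 248 to 327 lower, and between 641 and 678 of the higher and between 178 and 205 of the lower genes were kept. Of 241 called named genes, 201 were called under every alternative in which they were tested.

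Replicate numbers gave no pairing by design. Deviations of same-numbered libraries correlated at 0.234 over 10381 genes in 2 pairs, and with the replicate block 744 genes were higher and 267 lower. Cxcl9 was the named gene whose call the block removed.

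Among the named genes, those that changed sign under an alternative were all uncalled. With library totals Ptpn11 was at −0.0059, Socs4 at −0.021, Pias2 at −0.046 and Socs7 at −0.055, with deposited values Jak1 was at −0.0089, Ptpn11 at −0.018, Socs4 at −0.033, Pias2 at −0.058 and Socs7 at −0.067, and with median centring Pias2 was at −0.019 and Socs7 at −0.028. Without single libraries the values ranged from −0.13 to 0.39 at Ptpn6, −0.057 to 0.15 at Socs4, −0.070 to 0.11 at Pias2, −0.066 to 0.091 at Socs7, −0.043 to 0.0099 at Ifnar1, −0.083 to 0.025 at Stat5b, −0.15 to 0.026 at Tyk2, −0.13 to 0.0044 at Pias4 and −0.21 to 0.027 at Irf3. The cause was not tested.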

Other observations

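Called genes were not limited to protein-coding genes. Of 364 long intergenic non-coding genes tested 14 rose (3.85%) and 9 fell (2.47%). Of 331 antisense genes 10 rose (3.02%) and 7 fell (2.11%), and of 705 processed pseudogenes 10 rose (1.42%) and 1 fell (0.142%). In each of these classes the share that rose lay below the 5.22% of all genes tested, beside 1.86% that fell. Of 11586 protein-coding genes 637 rose (5.50%) and 220 fell (1.90%). Of 259 loci without a gene name 26 rose and 12 fell, which are larger shares than over all genes. Whether any of these shares differ from those over all genes was not tested. Antisense genes and pseudogenes can share reads with the genes they overlap or copy, and this was not tested.

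Among 12 mitochondrial transcripts mt-Co2 was called, from 318 and 408 to 608 and 560 scaled reads (0.69 ± 0.12), and it was not called in a fit over all 8 libraries. Of 13 p53 targets the cell cycle inhibitor Cdkn1a (0.51 ± 0.09) and the BH3-only gene Pmaip1 (0.65 ± 0.19) were called. Cdkn1a was not called with library totals (0.44), the values as deposited (0.43), median centring (0.46), edgeR (0.497), without treated replicate 1 (0.45) or without untreated replicate 2 (0.37). Pmaip1 was not called with DESeq2 (0.65), without treated replicate 2 (0.57) or without untreated replicate 2 (0.47). Dusp6 was the member of 14 ERK feedback genes that rose (0.84 ± 0.07), and of 18 YAP-TEAD targets the RhoGAP gene Dlc1 rose by 1.01 ± 0.09 log2 units while Ctgf fell. In the mitochondrial, p53, ERK feedback and YAP-TEAD lists 8.33%, 15.4%, 7.14% and 5.56% of tested genes rose, beside 5.22% of all genes tested.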
